A study of Mus musculus with 292 samples.

Results

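Messenger RNA of the mouse cerebral cortex was compared between ZT3 and ZT9, where ZT is zeitgeber time, by convention the hours since lights-on. Both times lie in the light phase if lights go off at ZT12, although the labels do not state the light schedule. All animals were wild-type C57BL/6J males aged 26 weeks, and the tissue was the right hemisphere of the cortex. The comparison used 12 libraries at ZT3 and 11 of the 12 at ZT9, which is 23 of the 292 libraries of a series that also holds striatum, hypothalamus and liver. Sampling every 3 h ran over 36 h, so ZT3 and ZT9 were each taken in a first cycle and again 24 h later. The first cycle held 6 libraries at 3 h and 6 at 9 h, and the second 6 at 27 h and 5 at 33 h. Every animal was untreated as far as the labels say, and each library came from 1 labelled mouse. The cortex contains neurons, glia and vessels, and in such a bulk sample fewer cells of a type and less RNA per cell cannot be told apart.

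Nearly every mammalian cell runs a clock in which the proteins CLOCK (or NPAS2) and BMAL1, the product of Arntl, bind E-box sequences and drive the genes of their own repressors, the PER and CRY proteins. The nuclear receptors REV-ERB alpha and beta, from Nr1d1 and Nr1d2, in turn repress Arntl. In the forebrain the same hours also carry the sleep-wake cycle: mice sleep mostly in the light phase, and waking is known to raise activity-induced genes, heat shock proteins and chaperones of the endoplasmic reticulum (ER). Sleep, feeding, body temperature and corticosterone were not recorded in the labels, so their part in the differences below was not tested.

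Libraries held 31.1 to 40.5 M counts (mega, 1e6) at ZT3 and 30.1 to 37.1 M at ZT9. The library labelled ZT9 replicate 9 was left out by the rule that set the comparison. Slc17a7, which marks excitatory neurons of cortex by their vesicular glutamate transporter, stood there at 12.7 CPM (counts scaled to a common library total, Wilson 95% interval 11.5 to 14, counting error only). The other 23 held 918.5 to 1300 CPM. Markers of striatal projection neurons, a cell type beneath the cortex, varied between libraries: their summed level was 203 to 1550 CPM at ZT3 (median 1010) and 186 to 1720 CPM at ZT9 (median 836), and none of the 10 markers passed the test between the times. In the first cycle the medians were 655 CPM at ZT3 and 308 at ZT9, and in the second 1330 and 1340. The median log2 difference of the 10 striatal markers, ZT9 minus ZT3, was -0.373. With so wide a spread, the lack of calls does not show that their level was equal. In the omitted ZT9 replicate 9 the striatal markers summed to 6480 CPM. The 11 markers of cortical excitatory neurons ran from 2050 to 3540 CPM in sum at ZT3 and from 2170 to 3050 at ZT9, with none called, so the labelled tissue was present in all 23.

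Of 18124 genes tested with edgeR's quasi-likelihood test, 1920 (10.6%) had a p under 0.05 after Benjamini-Hochberg adjustment over all of them and are here termed called. Of these, 1066 (5.88%) were higher at ZT9 and 854 (4.71%) lower. Most differences were small: the median fold was 1.18 among the genes called higher and 1.19 among those called lower. A change of at least 1.5-fold was reached by 84 genes called higher (0.463%) and 82 called lower (0.452%), which became 40 and 44 with a minimum of 1 CPM and 34 and 32 in the second cycle alone. The groups did not overlap for 73 genes with every ZT9 library above every ZT3 library (0.403%) and for 50 with every one below (0.276%). With the striatal marker sum as a covariate, a setting chosen after seeing the data, 1505 genes were called higher and 1325 lower.

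The period genes, Ciart, both REV-ERB genes and both DEC genes were higher at ZT9, and Arntl, Npas2, Nfil3 and Timeless were lower. Of 26 genes of the core clock and its output, 12 were called higher and 4 lower at ZT9, and 10 did not pass the test, against 10.6% of all genes called. The median log2 difference, ZT9 minus ZT3, was 0.138 over the list and -0.0014 over all genes tested. The E-box letters CACGTG, which read the same on both strands, are known to be bound by BMAL1 with CLOCK or NPAS2. Stretches that hold them are shown for 4 of the genes that rose. They are from RefSeq on GRCm38.p6, within 250 bases before an annotated start, written in the direction of the gene, with the motif in capitals.
Ciart, chr3:95882252-95882364, minus strand: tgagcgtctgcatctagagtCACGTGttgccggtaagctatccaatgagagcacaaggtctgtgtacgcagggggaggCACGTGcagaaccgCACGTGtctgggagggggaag
Per1, chr11:69098763-69098808, plus strand: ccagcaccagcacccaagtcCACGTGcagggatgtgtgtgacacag
Bhlhe41, chr6:145865559-145865593, minus strand: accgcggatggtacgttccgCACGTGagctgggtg
Tef, chr15:81811256-81811301, plus strand: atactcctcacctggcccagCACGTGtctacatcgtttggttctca
Ciart carried 3 such motifs, the first 116 and the last 44 bases before the start. Of the 20 clock genes with a promoter in the reference, 5 held CACGTG in these 250 bases (Bhlhe41, Ciart, Cry1, Per1 and Tef), against 9.37% of the 12281 tested genes that have one and 6.02% of all 32851 promoter windows. Among all genes called higher the share was 10.9%, and among those called lower 8.28%. A match is a description of these windows and was not tested as a binding site.

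Ciart, which encodes CHRONO, a repressor of CLOCK and BMAL1 (ENSMUSG00000038550, GRCm38 chromosome 3, 95878503 to 95882251), stood at 5.64, 7.46 and 9.31 CPM in the lowest, median and highest ZT3 library and at 19.3, 23.7 and 32.3 CPM at ZT9. Every ZT9 library lay above every ZT3 library. The rise was 3.21-fold, a log2 difference of 1.68 ± 0.0861 (SE throughout for log2 values, n = 12 and 11, adjusted p = 1.4e-12), the smallest p among the genes called.

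Per1, the period gene that is also induced by light and glucocorticoids (chromosome 11, 69095217 to 69109960), ran from 40.0 to 54.9 CPM at ZT3 (median 44.1) and from 61.5 to 153 CPM at ZT9 (median 87.9). The groups did not overlap, and ZT9 replicate 1 held the highest value. Its log2 difference was 1.04 ± 0.107 (2.06-fold, adjusted p = 3.62e-07). Per2, its partner in the repressor complex, had a log2 difference of 0.63 ± 0.111, with 9 of 11 ZT9 libraries above the highest at ZT3, and Per3 one of 0.45 ± 0.0561, with 10 of 11 above.

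Dbp, an output factor that acts through D-boxes (chromosome 7, 45705088 to 45710203), ran from 30.0 to 48.0 CPM at ZT3 (median 39.0) and from 62.5 to 99.9 CPM at ZT9 (median 85.3), again with no overlap. It rose 2.11-fold (log2 1.08 ± 0.0762, adjusted p = 8.67e-10). Because 18.0% of its exonic bases also belong to Sphk2, reads there may be shared. Tef, a second D-box factor, rose by 0.25 ± 0.0352 on the log2 scale, whereas the third, Hlf, had a log2 difference of 0.12 ± 0.0476 that did not pass (adjusted p = 0.112).

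Nr1d1, for REV-ERB alpha (chromosome 11, 98767932 to 98775333), ran from 59.3 to 95.1 CPM at ZT3 (median 77.3) and from 104 to 154 CPM at ZT9 (median 131), with no overlap. It rose 1.69-fold (log2 0.76 ± 0.0731, adjusted p = 1.56e-07), and 8.55% of its exonic bases are shared with Thra. Nr1d2, for REV-ERB beta, rose by 0.46 ± 0.0453 on the log2 scale. Bhlhe41, which encodes the E-box repressor DEC2, ran from 24.5 to 28.5 CPM at ZT3 and from 36.5 to 48.1 CPM at ZT9. The groups were apart in all 23 libraries, with a log2 difference of 0.68 ± 0.0397 (adjusted p = 1.37e-11). Its relative Bhlhe40 (DEC1) had a log2 difference of 0.51 ± 0.0997 with groups that overlapped, 5 of 11 ZT9 libraries being above the highest at ZT3. Usp2, a deubiquitinase of clock proteins, rose by 0.30 ± 0.0381.

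Per3 is shown with its D-boxes, the site of DBP, TEF and HLF and of their antagonist NFIL3. Any part of these sites in its rise was not tested. The letters searched were TTATGTAA and TTACGTAA on both strands, found in 2 of the 20 clock genes (Per3 and Timeless) and in 0.879% of tested genes with a window, 0.931% of all windows. Of these 2, Per3 was called higher and Timeless lower. Among all genes called higher the share was 0.863%, and among those called lower 1.16%.
Per3, chr4:151044796-151044890, minus strand: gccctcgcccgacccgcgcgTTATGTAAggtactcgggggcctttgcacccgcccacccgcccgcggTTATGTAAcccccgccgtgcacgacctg

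Arntl and Npas2, whose proteins activate E-box genes, fell. Arntl (chromosome 7, 113207465 to 113314126) ran from 51.3 to 59.6 CPM at ZT3 (median 54.1) and from 33.3 to 46.4 CPM at ZT9 (median 37.4). Every ZT9 library lay below every ZT3 library, and the log2 difference was -0.54 ± 0.0485 (1.45-fold lower, adjusted p = 5.24e-08). Npas2, the forebrain relative of CLOCK, fell from a median of 62.5 to 47.3 CPM with no overlap (log2 -0.45 ± 0.0424, adjusted p = 1.1e-07), while Clock itself had medians of 121 and 121 CPM and did not pass (log2 -0.08 ± 0.0656). Nfil3, the D-box repressor, fell from 8.73 to 5.66 CPM in the median, also without overlap (log2 -0.60 ± 0.0776). Timeless had a log2 difference of -0.28 ± 0.0615. Cry1 and Cry2 differed in outcome: Cry1 had medians of 18.9 and 17.5 CPM and did not pass, and Cry2 was called at 0.15 ± 0.0485 (adjusted p = 0.0388), a call lost in 14 of the 23 fits that each left out 1 library (log2 0.13 to 0.17). The ROR genes Rora and Rorb, activators of Arntl, and the kinases Csnk1d and Csnk1e did not pass.

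**Figure D1:**
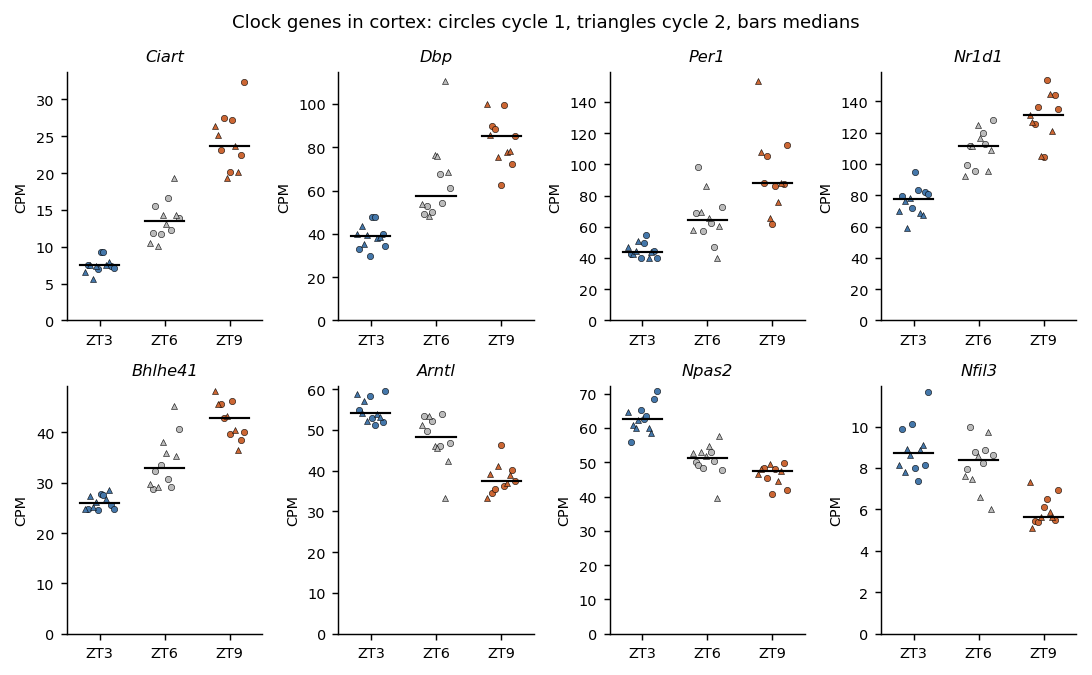
CPM (vertical axis, from 0) of 8 clock genes in each cortex library at ZT3, ZT6 and ZT9, with circles for the first cycle, triangles for the second and bars at the median. Ciart, Dbp, Per1, Nr1d1 and Bhlhe41 stand higher and Arntl, Npas2 and Nfil3 lower at ZT9, and in none of the 8 do the ZT3 and ZT9 libraries overlap; at ZT6, replicate 10 holds the highest Dbp (111 CPM) and the lowest Arntl (33.4).

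Activity-induced genes split in direction. Of 23 immediate early and activity-regulated genes, 8 fell and 3 rose between ZT3 and ZT9, and 12 did not pass, against 4.71% of all genes called lower and 5.88% called higher. In the second cycle alone 3 were called lower; the list median was 0.043, beside -0.0014 for all genes. Homer1, a scaffold of postsynaptic glutamate receptors with a short activity-induced form (chromosome 13, 93299635 to 93405129), ran from 252 to 384 CPM at ZT3 (median 312) and from 128 to 195 CPM at ZT9 (median 156). No ZT9 library reached the ZT3 range, and the level fell 2.00-fold (log2 -1.0 ± 0.0738, adjusted p = 1.31e-09). The gene-level counts do not tell its forms apart.

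Egr3, a zinc finger factor induced by activity (chromosome 14, 70077203 to 70082614), ran from 33.7 to 88.4 CPM at ZT3 (median 56.6) and from 17.8 to 37.1 CPM at ZT9 (median 28.1). In 10 of 11 ZT9 libraries it lay below the lowest ZT3 library, with a log2 difference of -0.98 ± 0.134 (adjusted p = 2.11e-05). Nptx2, a secreted pentraxin that clusters AMPA receptors, ran from 36.9 to 59.1 CPM at ZT3 and from 25.6 to 35 CPM at ZT9. Its groups did not overlap (log2 -0.72 ± 0.0725, adjusted p = 3.02e-07). Bdnf, the neurotrophin, ran from 26.2 to 45.4 CPM at ZT3 and from 21.6 to 31.9 CPM at ZT9, with 8 of 11 ZT9 libraries below the ZT3 range (log2 -0.41 ± 0.0972, adjusted p = 0.00653). The AP-1 genes Fosl2, Fosb and Jun had log2 differences of -0.66, -0.41 and -0.30, and Npas4, a neuron-specific early factor, one of -0.45 (adjusted p = 0.045).

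The 3 that rose did so unevenly across libraries. Junb ran from 4.63 to 11.5 CPM at ZT3 (median 9.08) and from 5.83 to 39.9 CPM at ZT9 (median 11.8). The groups overlapped, with 6 of 11 ZT9 libraries above the highest at ZT3, and the log2 difference was 0.82 ± 0.247 (adjusted p = 0.0329), a call lost in 7 of the 23 fits without 1 library (log2 0.57 to 0.90). ZT9 replicate 1 held the highest Junb, Sik1 (20.5 CPM), Dusp1 (40.5 CPM), Arc (200 CPM) and Per1 levels of the 11. Sik1, a kinase of the CREB pathway, had a log2 difference of 0.60 ± 0.153, and Dusp1, a phosphatase of MAP kinases, one of 0.50 ± 0.157. Only 1 of the 3 calls was left without ZT9 replicate 1, 2 or 12 or ZT3 replicate 3, 6 or 10, and 0 in each cycle alone. Arc, the activity-regulated cytoskeletal gene, had medians of 37.4 and 45.4 CPM and a log2 difference of 0.63 ± 0.273 that did not pass (adjusted p = 0.157). Fos, with medians of 6.19 and 6.80 CPM, and Egr1, with 173 and 149, did not pass either.

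**Figure D2:**
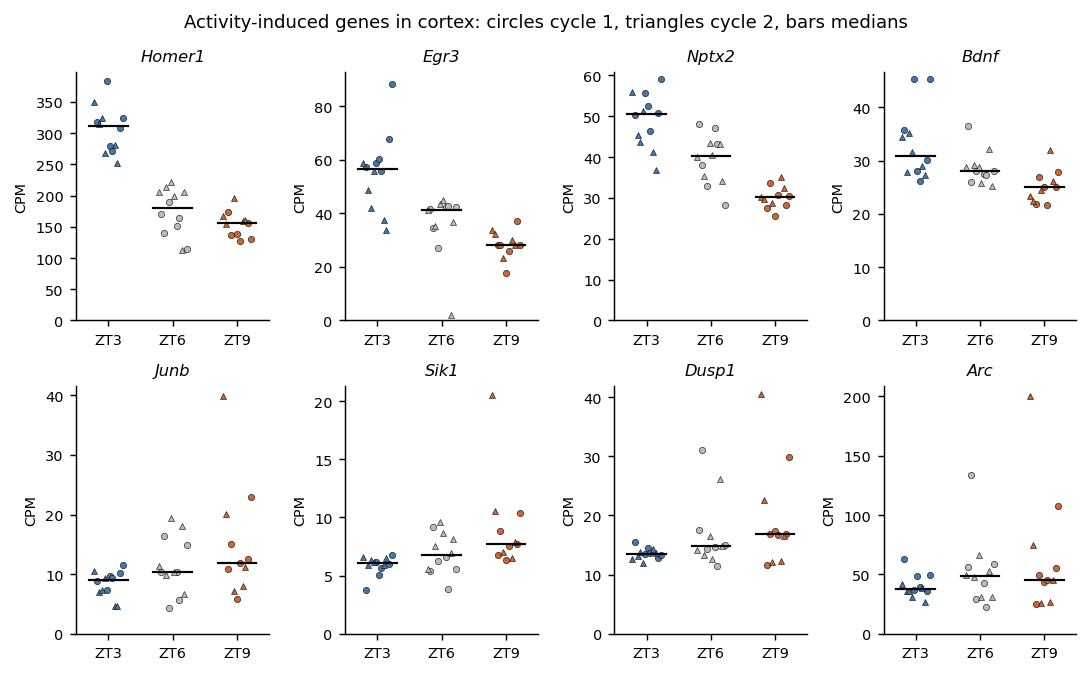
CPM (vertical axis, from 0) of 8 activity-regulated genes in each cortex library at ZT3, ZT6 and ZT9, drawn as in the plot of clock genes. Homer1 and Nptx2 separate ZT9 from ZT3 completely, and ZT6 replicate 10 holds Egr3 at 2.05 CPM. The highest ZT9 library of Junb, Sik1, Dusp1 and Arc is at 39.9, 20.5, 40.5 and 200 CPM. The next highest ZT9 library is at 22.88, 10.52, 29.95 and 107.5 CPM.

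Most of the listed chaperones of the ER fell. Of 20 ER chaperone and ER stress genes, 14 were called lower and 0 higher at ZT9, against 4.71% of all genes called lower, and the list median was -0.306 (all genes -0.0014). Hspa5, which encodes BiP, the main ER chaperone (chromosome 2, 34771970 to 34777547), ran from 242 to 343 CPM at ZT3 (median 274) and from 158 to 186 CPM at ZT9 (median 169). The groups did not overlap, and it fell 1.69-fold (log2 -0.76 ± 0.0579, adjusted p = 2.16e-09). Pdia6, a protein disulfide isomerase that forms and rearranges disulfide bonds, ran from 92.4 to 114 CPM at ZT3 and from 67.1 to 75.7 CPM at ZT9. Every ZT9 library lay below every ZT3 library (log2 -0.48 ± 0.0357, adjusted p = 1.35e-09). Calr, the calcium-binding lectin chaperone, fell from a median of 319 to 229 CPM (log2 -0.52 ± 0.0538), again with no overlap. Sdf2l1, a partner of BiP, had the largest fall of the list at log2 -0.81 ± 0.125, with 7 of 11 ZT9 libraries below the ZT3 range.

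Pdia4, Manf, Dnajb11 and Xbp1 also had no ZT9 library inside the ZT3 range, with log2 differences of -0.48, -0.46, -0.33 and -0.28. Xbp1 encodes a factor of the unfolded protein response and Manf a secreted ER factor. The remaining calls were Creld2, Pdia3, Hsp90b1 (GRP94), Hyou1, Ddit3 (CHOP) and Sel1l, from -0.34 to -0.14. Atf4 and Herpud1, genes of the response that are not chaperones, had medians of 116 and 117 CPM and of 53.2 and 53.4 CPM at ZT3 and ZT9 and did not pass, nor did Canx, Dnajb9, Dnajc3 and Syvn1.

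The promoters of this list are shown for the ER stress element, the composite site of NF-Y and ATF6 or XBP1: CCAAT, 9 bases of any kind, then CCACG, searched on both strands, a motif added after the values of the lists were known. It was present in 8 of the 18 listed genes with a window (Calr, Canx, Creld2, Dnajc3, Hsp90b1, Hspa5, Pdia6 and Syvn1), against 19 of 12281 tested genes (0.155%) and 0.113% of all windows. Of these 8, Calr, Creld2, Hsp90b1, Hspa5 and Pdia6 were called lower, and Canx, Dnajc3 and Syvn1 were not called. The CCAAT and CCACG parts are in capitals below, and read CGTGG and ATTGG where the site lies on the other strand.
Pdia6, chr12:17266471-17266529, plus strand: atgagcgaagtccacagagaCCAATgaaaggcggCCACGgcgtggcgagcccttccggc
Hsp90b1, chr10:86705513-86705676, minus strand: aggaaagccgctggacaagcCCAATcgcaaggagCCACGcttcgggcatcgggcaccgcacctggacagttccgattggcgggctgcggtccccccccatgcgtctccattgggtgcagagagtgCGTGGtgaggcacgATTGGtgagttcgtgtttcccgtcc
Creld2, chr15:88819500-88819558, plus strand: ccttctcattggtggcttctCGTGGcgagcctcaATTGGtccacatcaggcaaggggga
Hsp90b1 held 2 sites in opposite orientation, 212 and 107 bases before its start. Pdia6 held 1 at 98 bases and Creld2 1 at 126.

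Chaperones of the cytosol fell in part. Of 20 listed, with the mitochondrial Hspd1 and Hspe1 among them, 10 were called lower and 0 higher, against 4.71% of all genes called lower. The list median was -0.133. In the second cycle alone 6 were called lower. Hspa1b, an inducible HSP70 gene (chromosome 17, 34956436 to 34959238), ran from 2.40 to 5.15 CPM at ZT3 (median 3.83) and from 1.49 to 2.72 CPM at ZT9 (median 2.16). In 8 of 11 ZT9 libraries it lay below the ZT3 range, and the log2 difference was -0.90 ± 0.128 (1.87-fold lower, adjusted p = 3.4e-05). Its near-identical neighbour Hspa1a, with medians of 2.82 and 2.77 CPM, did not pass, and because reads can be shared between these paralogs both values are uncertain. Hspb1, the small heat shock protein HSP27, had medians of 1.95 and 1.08 CPM (log2 -0.93 ± 0.145), and Cryab, a small chaperone of glia and lens, medians of 82.6 and 60.8 CPM (log2 -0.50 ± 0.0791).

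The constitutive Hspa8 (log2 -0.31 ± 0.0521) and Hsph1, an HSP110 that resets HSP70 (-0.30 ± 0.0417), had smaller differences. The HSP90 co-chaperones Stip1, Chordc1, Fkbp4 and Ahsa1 ranged from -0.28 to -0.18. Hsp90ab1 was called at -0.11 ± 0.0335, but Hsp90aa1 had medians of 278 and 274 CPM and did not pass, nor did the mitochondrial Hspd1 and Hspe1. Heat shock elements are shown for the inducible pair with the largest falls, as GAANNTTC, where N is any base; the letters read the same on both strands.
Hspa1b, chr17:34959315-34959362, minus strand: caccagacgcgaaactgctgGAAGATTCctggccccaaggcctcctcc
Hspb1, chr5:135887782-135887849, plus strand: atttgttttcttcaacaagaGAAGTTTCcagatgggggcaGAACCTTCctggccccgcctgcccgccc
The motif was present in 7 of the 15 listed genes with a window (Dnaja1, Fkbp4, Hspa1a, Hspa1b, Hspb1, Hspd1 and Hspe1), against 6.22% of tested genes and 6.69% of all windows. Of the 7, Fkbp4, Hspa1b and Hspb1 were called lower, and Dnaja1, Hspa1a, Hspd1 and Hspe1 were not called. Among all genes called higher the share was 4.56%, and among those called lower 7.12%. Whether these matches are binding sites was not tested.

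**Figure D3:**
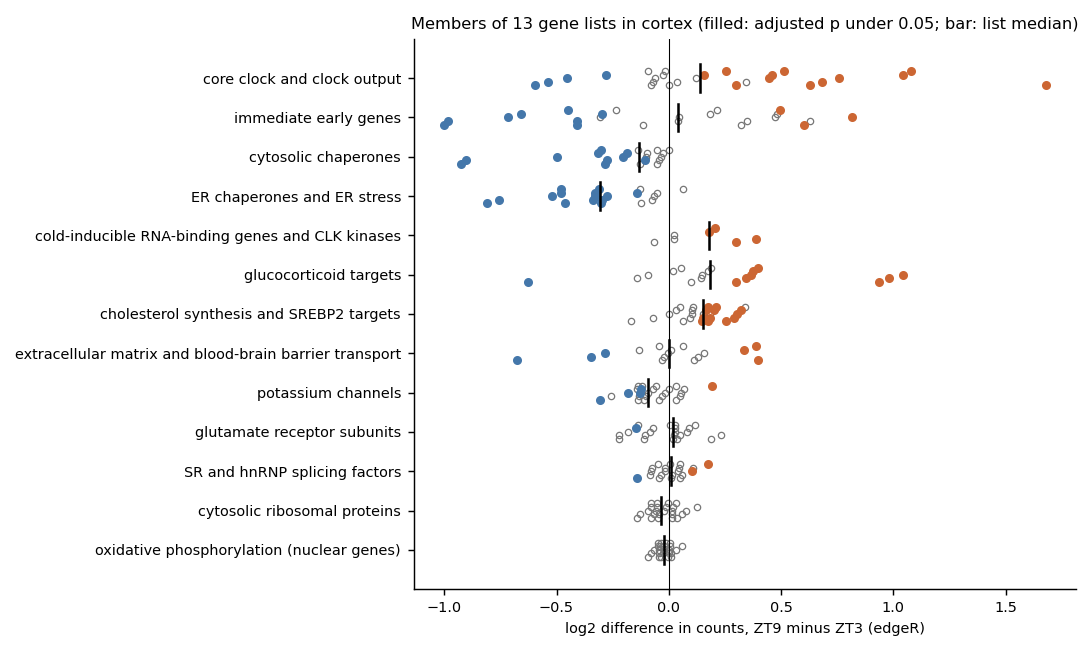
Fitted log2 difference in counts, ZT9 minus ZT3 (horizontal axis), for each tested member of 13 gene lists, filled where the adjusted p was under 0.05, with a bar at the list median. The ER list (median -0.306) and the cytosolic chaperones (-0.133) lie to the left, the cholesterol, glucocorticoid and cold-inducible lists (0.153, 0.182 and 0.177) to the right, and the ribosomal and oxidative phosphorylation lists close to 0 with no filled point.

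The cold-inducible RNA-binding genes Cirbp and Rbm3 rose. Of 7 genes on this list, which also holds the CLK splicing kinases that are more active at lower body temperature, 4 were called higher and 0 lower (median 0.177), against 5.88% of all genes called higher. The 4 calls became 2 in the second cycle alone and 2 with the code in the sample descriptions as a factor. Cirbp (chromosome 10, 80165985 to 80172786) ran from 48.6 to 65.3 CPM at ZT3 (median 57.4) and from 63.2 to 84.0 CPM at ZT9 (median 77.1). In 10 of 11 ZT9 libraries it lay above the ZT3 range (log2 0.39 ± 0.0508, adjusted p = 1.2e-05). Rbm3 (chromosome X, 8138975 to 8145880) ran from 21.7 to 27.1 CPM at ZT3 and from 28.0 to 36.1 CPM at ZT9, with no overlap (log2 0.30 ± 0.0457, adjusted p = 8.86e-05). Clk1 and Clk4 were called at 0.21 ± 0.0599 and 0.18 ± 0.0549, the second call being lost in 11 of the 23 fits without 1 library (log2 0.15 to 0.19). Among 20 SR and hnRNP splicing factors, Hnrnpdl and Srsf2 were called higher (0.18 and 0.11) and Hnrnpc lower (-0.14). The calls of Srsf2 and Hnrnpc were lost in 13 and 12 of those 23 fits (log2 0.09 to 0.11 and -0.17 to -0.13).

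Glucocorticoid targets rose in part. Of 18 listed, 8 were called higher and 1 lower (median 0.182), against 5.88% and 4.71% of all genes, with Per1 on this list as well as on the clock list. Plin4, a lipid droplet coat protein, ran from 0.938 to 1.53 CPM at ZT3 (median 1.14) and from 1.46 to 3.41 CPM at ZT9 (median 2.34). In 10 of 11 ZT9 libraries it exceeded the ZT3 range (log2 0.98 ± 0.12, adjusted p = 4.64e-06). Hif3a, a hypoxia-inducible factor subunit and steroid-responsive gene, ran from 3.33 to 6.61 CPM at ZT3 and from 7.45 to 11.1 CPM at ZT9, with no overlap (log2 0.93 ± 0.0915, adjusted p = 1.93e-07). Sgk1, a kinase, likewise did not overlap, at medians of 50.4 and 63.0 CPM (log2 0.37 ± 0.0481). Tsc22d3 (GILZ) had a log2 difference of 0.37, Mt2, a metallothionein, one of 0.40, and Nfkbia and Sult1a1 ones of 0.30 and 0.34. Of the exonic bases of Mt2, 73.5% are shared with Gm45774. Fkbp5, a co-chaperone of the receptor, had medians of 22.9 and 26.2 CPM and did not pass (adjusted p = 0.117). Cdkn1a, the cell cycle inhibitor p21, fell from a median of 16.6 to 11.3 CPM with no overlap (log2 -0.63 ± 0.103, adjusted p = 0.000229).

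Cholesterol synthesis genes rose in part, by small amounts. Of 25 listed SREBP2 targets, 12 were called higher and 0 lower, against 5.88% of all genes called higher, and the median was 0.153. A log2 difference above 0 was seen in 23 of the 25 and in 49.4% of all genes tested. Insig1, the sterol sensor that retains SREBP in the ER, ran from 55.9 to 77.5 CPM at ZT3 (median 61.5) and from 70.3 to 88.8 CPM at ZT9 (median 79.2). In 8 of 11 ZT9 libraries it exceeded the ZT3 range (log2 0.32 ± 0.0507, adjusted p = 0.000136). Hmgcs1, an early synthase of the pathway, had medians of 310 and 363 CPM (log2 0.21 ± 0.0391). Mvk and Mvd, a kinase and a decarboxylase of the mevalonate steps, had 0.29 and 0.30, and Sqle, squalene epoxidase, 0.17 ± 0.0277 with 10 of 11 ZT9 libraries above the ZT3 range. Srebf2, the gene of SREBP2 itself, did not pass. The 12 calls became 2 in the first cycle alone and 6 with ZT9 replicate 9 kept.

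Genes outside these lists had some of the clearest separations. Tspan4, a tetraspanin (chromosome 7, 141475240 to 141493427), ran from 4.74 to 6.25 CPM at ZT3 (median 5.31) and from 7.87 to 10.5 CPM at ZT9 (median 8.89). There was no overlap (log2 0.75 ± 0.0583, adjusted p = 2.76e-09), and 13.4% of its exonic bases are shared with Chid1. Inmt, an indolethylamine methyltransferase, ran from 0.703 to 1.27 CPM at ZT3 and from 1.96 to 3.52 CPM at ZT9 (log2 1.27 ± 0.115, 2.42-fold, no overlap). Among more abundant genes, Fmo2, a flavin monooxygenase, rose 2.29-fold, Tnxb, for the matrix protein tenascin X, 2.14-fold, Abca4, a retinoid transporter, 1.83-fold, and Xdh, xanthine dehydrogenase of purine breakdown, 1.77-fold. Of these 4, Abca4 and Xdh had no overlap, and Fmo2 and Tnxb had 10 of 11 ZT9 libraries above the ZT3 range. Epha8, an ephrin receptor, rose 1.81-fold.

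Maml3, a coactivator of Notch signalling (chromosome 3, 51685907 to 52105076), had the smallest p among the genes that fell, tied with Homer1. It ran from 15.7 to 20.1 CPM at ZT3 (median 17.1) and from 6.97 to 11.9 CPM at ZT9 (median 9.11). The groups did not overlap (log2 -0.93 ± 0.0686, adjusted p = 1.31e-09). Inhba, the activin beta A subunit, which neuronal activity is known to induce, fell from a median of 6.14 to 3.34 CPM (log2 -0.86 ± 0.089), and Cbln4, a secreted synaptic organiser, from 18.5 to 11.5 CPM (-0.84 ± 0.125), both without overlap. Zdhhc14, a palmitoyltransferase, fell from 40.7 to 28.8 CPM, also without overlap (-0.52 ± 0.0457). Car12, a carbonic anhydrase, Bfsp2, a filament protein, and Plekhg4 fell with overlap, by 0.82, 0.81 and 0.80 on the log2 scale.

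Vascular genes moved in both directions. Of 12 endothelial and mural markers, 5 were called lower and 0 higher (median -0.125), against 4.71% of all genes called lower, and their summed level was 397 to 506 CPM at ZT3 and 372 to 460 CPM at ZT9, with 0 of the 12 at 0. Cldn5, the tight junction claudin of the blood-brain barrier (chromosome 16, 18776847 to 18778262), ran from 21.0 to 35.1 CPM at ZT3 (median 28.0) and from 13.1 to 21.9 CPM at ZT9 (median 17.7). In 10 of 11 ZT9 libraries it lay below the ZT3 range (log2 -0.67 ± 0.0888, adjusted p = 1.32e-05). Kdr (VEGF receptor 2) and Tek (TIE2) had log2 differences of -0.39 and -0.25, and Pecam1 and Flt1 ones of -0.16 and -0.14. The 5 calls became 2 in the first cycle alone, 3 in the second, and 3 without ZT9 replicate 2, 3 or 12 or ZT3 replicate 5 or 7. The basement membrane genes Col4a1 and Col4a2 fell by 0.28 and 0.35.

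Of 16 genes of the extracellular matrix and of barrier transport, 3 were called higher, 3 lower and 10 not called (median 0.00216), against 5.88% and 4.71% of all genes. The 3 higher were transporters. Abcg2, an efflux pump, ran from 16.9 to 21.7 CPM at ZT3 and from 22.5 to 30.9 CPM at ZT9, and Slco1a4, an organic anion transporter, from 48.0 to 67.2 and from 68.0 to 90.3 CPM. Neither overlapped (log2 0.40 ± 0.0473 and 0.39 ± 0.051), and Slc7a5, the large neutral amino acid transporter, had 0.34 ± 0.0576. From other lists, Tfrc, the transferrin receptor, and Slc2a1, the glucose transporter of the barrier, were called higher at 0.24 and 0.25, Tfrc being 1 of 2 called among 14 tested genes of polyamine and iron metabolism. The oligodendrocyte lineage factors Olig2 (log2 -0.55 ± 0.0811, medians 21.5 and 14.6 CPM) and Olig1 (-0.30) were the 2 of 6 markers of oligodendrocyte precursors called lower, and the glial factor Sox9 (-0.21) was the 1 of 8 astrocyte markers. In contrast, 0 of 8 oligodendrocyte and 0 of 8 microglial markers were called. Lum, of meningeal fibroblasts, was the 1 of 8 meningeal markers called, at 0.46; their sum was 39.7 to 69.8 CPM at ZT3 and 51.7 to 85.6 CPM at ZT9. None of 6 tested choroid plexus markers was called (median 0.428), and their sum was 4.47 to 117 CPM at ZT3 (median 34.4) and 4.03 to 504 CPM at ZT9 (median 20), where replicate 12 held 504 and the next highest library 80.7. The part of cell makeup in these differences was not tested.

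Receptor subunit lists held 1 call each. Of 22 glutamate receptor subunits, Grin2a alone was called (log2 -0.15 ± 0.0432, lost without ZT3 replicate 6 at -0.14), and of 14 GABA receptor subunits Gabra2 alone (-0.32 ± 0.0555, medians 72.0 and 58.2 CPM). Of 25 potassium channel genes, 4 were called lower (Kcnj2 and Kcnk1 among them) and Kcnj3 higher, against 4.71% and 5.88% of all genes, with log2 differences from -0.31 to 0.19. The calls of Kcnj2 and Kcnj3 were lost in 7 and 8 of the 23 fits without 1 library (log2 -0.36 to -0.26 and 0.17 to 0.23). None of 24 cytosolic ribosomal proteins, 24 nuclear genes of oxidative phosphorylation, 8 tested genes of the mitochondrial genome and 18 autophagy and proteasome genes was called by edgeR, and their medians lay between -0.0332 and -0.0228. In the insulin and FOXO list of 16, Foxo3, Slc2a1 and Txnip were called higher and Angptl4 lower, against 5.88% and 4.71% of all genes.

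The 2 cycles are separate sets of libraries, taken 24 h apart. Of 839 genes called in the first cycle alone (4.64%), 817 (97.4%) had the same direction in the second and 573 (68.3%) the same direction with an unadjusted p under 0.05, against 67.5% and 12.8% of all 17925 genes tested in both. None had the opposite direction with such a p. The second cycle alone gave 312 calls (1.7%). The differences of these genes had a median size of 0.367 in the first cycle, on which they were chosen, and 0.221 in the second. Ciart had log2 differences of 1.66 and 1.68, Arntl -0.54 and -0.54, Pdia6 -0.50 and -0.46, and Homer1 -1.15 and -0.84. Fosb had -0.69 and -0.10, and Junb 0.45 and 1.22. The interaction of time with cycle was called for 0 genes by edgeR (719 genes, 3.97%, at an unadjusted p under 0.05), so no difference between cycles was detected at this depth and number of libraries.

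**Figure D4:**
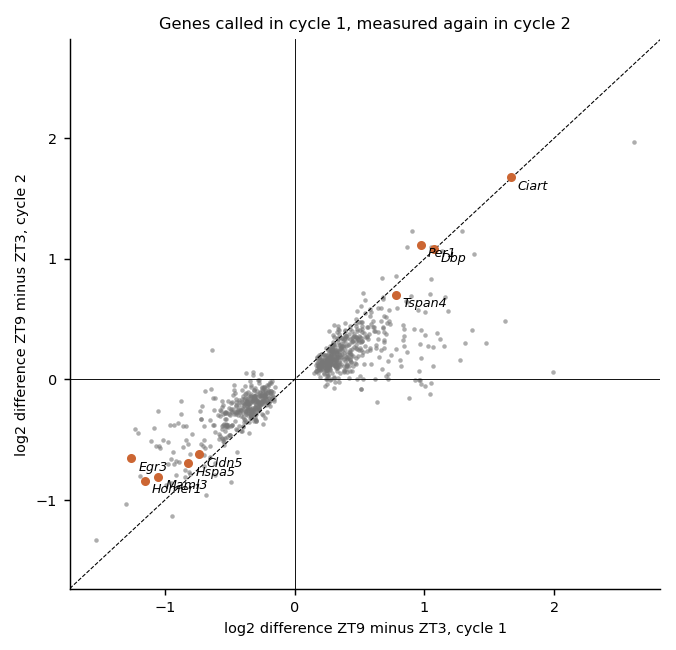
Log2 difference ZT9 minus ZT3 in the second cycle (vertical axis) against the first (horizontal axis) for the 839 genes called in the first cycle that were tested in both, with the line of equal values dashed. Of these, 817 lie in the quadrants of equal sign, with Ciart, Per1, Dbp and Tspan4 at upper right and Homer1, Egr3, Maml3, Hspa5 and Cldn5 at lower left.

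The 12 libraries at ZT6, which took no part in the test, mostly lay between. The ZT6 median was between the ZT3 and ZT9 medians for 86.2% of the genes called higher and 83.5% of those called lower. Among genes not called the share was 40.8%. Called genes were selected for a gap between ZT3 and ZT9, of median log2 size 0.235 (higher) and 0.251 (lower). The median size was 0.0667 among genes not called. A wider gap holds the ZT6 median more often, so the larger shares do not by themselves show a gradual course. The library labelled ZT6 replicate 10 stood apart: Egr3 was at 2.05 CPM there against 27.1 to 45 in the other 11, Cldn5 at 48.1 against 20.9 to 29.9, Hspa1b at 6.78 against 1.76 to 3.06 and Dbp at 111 against 48.0 to 76.6. Its astrocyte markers summed to 3050 CPM against 4130 to 5070, and its inhibitory neuron markers to 1930 against 1100 to 1370. Without it, a setting chosen after seeing the data, the shares were 84.8%, 84.9% and 41.2%. The ZT6 medians below include it, and without it Maml3 was at 9.46 CPM, Homer1 at 189, Cldn5 at 27.6 and Ciart at 13.1. Some genes were close to their ZT9 level by ZT6 and others close to their ZT3 level. Maml3 stood at a median of 9.19 CPM at ZT6 against 9.11 at ZT9, Homer1 at 180 against 156, and Hspa5 at 187 against 169. Insig1 had 79.7 at ZT6 and 79.2 at ZT9. By contrast Cldn5 was still at 27.7 CPM at ZT6, against 28.0 at ZT3 and 17.7 at ZT9, Nfil3 at 8.4 against 8.73 and 5.66, and Rbm3 at 25.3 against 25.6 and 31. Ciart was at 13.5 CPM, between 7.46 and 23.7.

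Past ZT9 the genes described here took different courses. The times from ZT15 onward were sampled in the first cycle only, so they hold fewer libraries than ZT12. Ciart went on to a median of 32 CPM at ZT12, and Hif3a to 16.2 from 8.61, with Plin4 at 9.17 from 2.34. Homer1 and Hspa5 were at 161 and 181 CPM at ZT12 and at 302 and 310 CPM at ZT15. Sdf2l1 (5.10 and 10.4) and Hspa1b (1.89 and 4.55) did the same between ZT12 and ZT15. Cirbp had its highest median at ZT9 (77.1 CPM) and 47.1 at ZT15, while Rbm3 had its highest at ZT15 (44.3 CPM). Junb and Arc were near their lowest medians at ZT3 (9.08 and 37.4 CPM), against 30.1 and 350 CPM at ZT0. Among all genes called higher, 52.8% had a ZT12 median beyond that at ZT9, among those called lower 42.9%, and among all tested 49.7%.

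**Figure D5:**
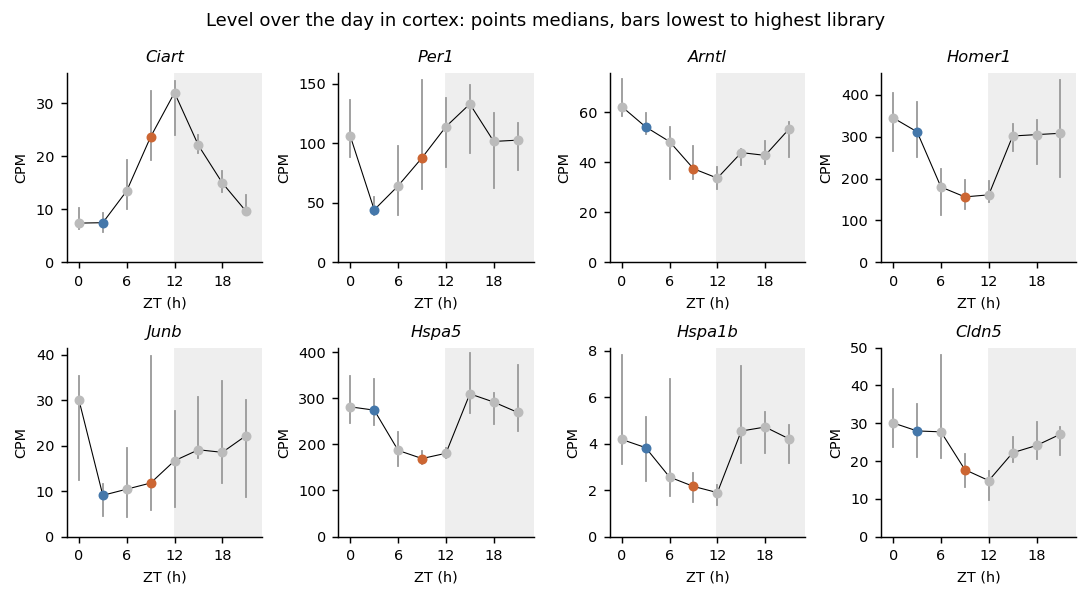
Median CPM (points) of 8 genes in cortex at the 8 ZT groups, with lines from the lowest to the highest library, ZT3 in blue, ZT9 in orange and ZT12 onward shaded; 1 library each at ZT0 and ZT9 that lacked excitatory neuron markers is left out. Ciart runs from 7.46 CPM at ZT3 to 32 at ZT12, Homer1 and Hspa5 stay at 161 and 181 CPM at ZT12, and the Cldn5 median falls only after ZT6, where the highest library (replicate 10) is at 48.1 CPM.

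The same contrast was tested against that of the hypothalamus and of the liver of the same mice, with the mouse as a block. On their own, the hypothalamus gave 400 calls (2.13%) and the liver 6834 (46.0%). The difference of cortex and hypothalamus passed for 29 of 19614 genes (0.148%), of which 5 were among the 26 clock genes. That count was 11 with the libraries that stand apart kept and 60 without the mouse block. Besides ZT9 replicate 9 of the cortex, the fit left out ZT9 replicate 9 of the hypothalamus, in which the pituitary hormone gene Gh stood at 20930 CPM against 0 to 66.0 in the other 22. In cortex the changes of Ciart (log2 1.68 against 0.55, adjusted p of the difference 8.1e-06), Bhlhe41 (0.68 against 0.22), Per1 (1.04 against 0.23) and Nr1d1 (0.76 against 0.19) were larger, and Cry1 differed too (-0.07 against 0.25). Dbp (1.08 against 0.67), Per2, Per3 and Arntl did not pass. Homer1 fell in cortex and was at 0.01 in the hypothalamus (adjusted p of the difference 2.34e-06), and Maml3 (-0.93 against -0.23), Cbln4 (-0.84 against -0.02) and Hspa5 (-0.76 against -0.33) also differed. For Pdia6 (-0.48 against -0.28), Hspa1b (-0.90 against -1.18), Cirbp (0.39 against 0.30) and Cldn5 (-0.67 against -0.78) no difference between the regions was detected.

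Against the liver, 4393 of 19430 genes (22.6%) differed, with 20 of the 26 clock genes among them. The cortical changes were the smaller ones for most of these: Dbp had 1.08 in cortex and 4.24 in liver, Ciart 1.68 and 6.27, Per1 1.04 and 4.49, and Arntl -0.54 and -5.25. Nr1d1 was an exception with 0.76 in cortex and 0.27 in liver (adjusted p of the difference 0.00961). Wee1, a cell cycle kinase under E-box control, had -0.06 in cortex and 3.17 in liver. The cholesterol genes Hmgcs1 (0.21 against -1.10) and Insig1 (0.32 against -0.53) had opposite signs, and Hspa5 was at -0.76 and -1.51.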

How the data were processed

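The values used are raw counts per Ensembl gene, deposited by the authors as 1 table per tissue. STAR 2.7.3a, HTSeq 0.10.0, GRCm38 and mm10 are listed, without role or order, per the submitters' processing notes. Neither the annotation release nor whether counting used strand is given in the sources used here. Reads from a gene and an overlapping antisense gene may therefore be mixed. Of 48795 identifiers, 48349 matched a symbol in GENCODE M21, which also gave positions and shared exonic bases. Per the labels' protocols, total RNA was taken with a Qiagen miRNeasy kit.

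Libraries were grouped by tissue and ZT from the labels, which list 12 libraries at ZT9 in cortex. Leaving out replicate 9 gave 11. For the hypothalamus, 12 ZT3 and 10 ZT9 libraries were used, without replicate 9 of ZT9, and for the liver 12 and 11. Genes passing filterByExpr were scaled by TMM (factors 0.9555 to 1.032) and tested with edgeR 4.0.16's quasi-likelihood test, with Benjamini-Hochberg adjustment over all genes tested, ZT alone as the term and a threshold of 0.05. The fit was checked on simulated counts. P-values measure the spread between libraries of separate labelled mice. Levels are CPM, counts scaled to the library total. No pair of libraries within a group agreed within sampling noise. The replicate numbers were checked as pairs and did not pair the libraries.

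The named genes are the clock list, the 10 largest called changes each way at a mean log2 CPM of at least 1, the 5 smallest adjusted p each way, the 4 smallest in each other list, the 4 smallest p for each tissue difference and the 3 for the cycle difference. A part of them is described, with other members of the lists. Some genes are not reported here, although all counts include them. The comparison, the lists, the motifs and this rule were chosen with earlier results of these data known. Other settings were DESeq2 1.42.0, limma 3.58.1 voom, other scalings and filters, all 8 ZT groups, replicate 9 kept, cycle terms, the code in the sample descriptions, the replicate block, leaving out each library, and the striatal marker sum, which was added after seeing the data. Promoter windows are the 250 bases before each RefSeq start, and printed stretches stop where GENCODE marks a UTR. The letters TGACGTCA (CRE) and AGGTCA (only the core of the ROR element, without its flanking bases) were also searched in these windows. Of tested genes with a window, 2.87% held the CRE and 13.1% the letters AGGTCA. The shares were 2.47% and 13.1% among genes called higher, and 2.65% and 13.9% among those called lower.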

Additional observations from a re-analysis of the deposited data

Results flagged for a closer look

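These results were picked out because the ZT9 minus ZT3 difference itself was tested between tissues of the same mice and passed at an adjusted p under 0.05 (edgeR, mouse as a block). Values are log2 differences of the other tissue minus cortex, so a negative value means a lower ZT9 minus ZT3 difference than in cortex. In the hypothalamus, 4 clock genes had a smaller rise than in cortex: Ciart at -1.10, Per1 at -0.75, Nr1d1 at -0.56 and Bhlhe41 at -0.45, and Cry1 stood at 0.32. Genes that fell in cortex had values above 0: Homer1 at 1.01, Cbln4 at 0.80, Maml3 at 0.69 and Hspa5 at 0.42. Abca4 was at -1.06 (cortex 0.87, hypothalamus -0.15) and Tnxb at -1.05 (cortex 1.10, hypothalamus -0.01). Insig1 was at -0.28. Hif3a was at 0.59, with a larger difference in the hypothalamus (1.49) than in cortex (0.93). Inka2, a kinase inhibitor that was not called in cortex (0.14), was at -0.74, with -0.63 in the hypothalamus. In the liver, the 4 genes with the smallest p were Usp2 at 5.12, Arntl at -4.63, Wee1 at 3.23 and Clpx, a mitochondrial protease subunit, at -2.34.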

How the results depend on the processing

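None of the 74 called genes named by the rule changed direction under any setting run, and 0 of them lost the call under DESeq2's Wald test, DESeq2 size factors, a minimum of 1 CPM in 11 libraries or a term for the cycle. With ZT9 replicate 9 kept 541 genes were higher and 443 lower, and 17 of the 74 lost the call. The first cycle alone gave 463 and 376 (17 lost) and the second 152 and 160 (22 lost), each from fewer libraries. The description code gave 726 and 580 (9 lost). The striatal marker covariate gave 1505 higher and 1325 lower, and the cause was not tested. With scaling by library totals alone they were 1241 and 697. Without a filter on low counts 766 and 678 genes were called. The replicate block gave 1010 higher and 878 lower, 6 of the 74 losing their call. Leaving out 1 library at a time gave 901 to 1056 higher and 742 to 920 lower, and 73 to 90 and 77 to 89 at 1.5-fold. The 1.5-fold counts were 40 and 44 with the 1 CPM minimum, which tests fewer genes of low level, and 34 and 32 in the second cycle. Immediate early genes called higher were 1 by limma-voom, 1 with the description code, 0 in each cycle alone and 1 to 3 without 1 library, and those called lower were 3 in the second cycle. Cytosolic chaperones called lower were 6 in the second cycle. Cold-inducible and CLK genes called higher were 2 in the second cycle and 2 with the description code. Cholesterol genes called higher were 6 with replicate 9 kept and 2 in the first cycle. Endothelial and mural markers called lower were 3 with library totals, with no filter, with replicate 9 kept, in the second cycle and with the description code, 2 in the first cycle, and 3 to 6 without 1 library. Genes differing between cortex and hypothalamus were 60 without the mouse block and 11 with the libraries that stand apart kept. The causes of these moves were not tested. Levels near 1 CPM, as for some inducible genes, limit what could be called.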
